A study of Mus musculus with 2 samples.

Results

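The Kruppel-like factor genes, a family of transcription factor genes, were described in mouse gastrocnemius muscle through 10 members: Klf2, Klf3, Klf4, Klf5, Klf6, Klf7, Klf9, Klf10, Klf13 and Klf15. They were taken by gene symbol from a table of 34745 Ensembl genes, and all 10 were found in it. The data were 1 RNA sequencing library of whole gastrocnemius from Cipc scKO mice and 1 from Cipc flox/flox mice, both C57BL/6 and 8 weeks old. Cipc encodes an inhibitor of the clock transcription factors CLOCK and BMAL1. In flox/flox mice the gene is flanked by loxP sites, and the series title describes a deletion in satellite cells, the stem cells of muscle, which is how scKO was read. The title also speaks of mdx mice, which lack dystrophin. The sample labels do not mention mdx, name no Cre driver, and do not say whether muscles of several animals were pooled.

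KLF proteins bind GC-rich and CACCC-type DNA through zinc fingers near their carboxyl end, and they compete with Sp factors for such sites. Outside the zinc fingers they differ. KLF3, KLF8 and KLF12 recruit the corepressor CtBP, KLF9, KLF10, KLF11, KLF13, KLF14 and KLF16 recruit SIN3A, and KLF1, KLF2, KLF4, KLF5, KLF6 and KLF7 are mostly known as activators. In muscle the family is known for the glucocorticoid-induced KLF15, which acts on amino acid and lipid use, and for KLF2 and KLF4, which in cultured mouse myoblasts act downstream of the kinase ERK5 in cell fusion.

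With 1 library per genotype no difference below has a replicate check, and each compares these libraries rather than the genotypes. Ratios are log2 ratios of scKO over flox/flox after scaling of the libraries, and the values in brackets after them are 95% intervals that cover counting error only. The total count was 13842100 in scKO and 14727219 in flox/flox. Cipc itself had 111 counts in scKO and 658 in flox/flox, a log2 ratio of −2.51 (−2.82 to −2.22). Muscle fibre transcripts dominated both libraries, with the creatine kinase gene Ckm at 13117 FPKM in scKO and 13493 FPKM in flox/flox. Satellite cell transcripts were scarce, with Pax7 at 0.440 FPKM in scKO and 0.732 FPKM in flox/flox. FPKM values are the authors' and divide counts by a length per gene and by library total.

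Klf9 was the most abundant member in both libraries. It encodes a repressor that glucocorticoids and thyroid hormone induce, and it stood at 55.8 FPKM in scKO and 54.5 FPKM in flox/flox. It alone made up 42.9% of the summed FPKM of the 10 members in scKO and 44.1% in flox/flox. Both shares hold for the deposited lengths only, and the level of Klf9 is lower with the merged exon lengths used below. Klf2, best known from the lining of blood vessels, followed with 24.4 FPKM in scKO and 23.3 FPKM in flox/flox, and Klf6, an injury-responsive gene, with 19.7 FPKM in scKO and 14.0 FPKM in flox/flox. The counting intervals of Klf9, Klf2 and Klf6 did not overlap each other within either library. Below them the order differed between the libraries.

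In scKO the middle of the order ran Klf10 (7.31 FPKM), Klf15 (6.85 FPKM) and Klf4 (6.47 FPKM), where each interval overlapped the next, and then Klf13 (5.24 FPKM). In flox/flox it ran Klf10 (9.61 FPKM) and Klf4 (8.88 FPKM), whose intervals overlapped, and then Klf15 (4.82 FPKM) and Klf13 (4.43 FPKM), whose intervals also overlapped. By deposited FPKM, Klf15 thus stood beside Klf4 in scKO and below it in flox/flox. Klf7 had 2.18 FPKM in scKO and 2.02 FPKM in flox/flox, and Klf3 had 1.21 FPKM in scKO and 1.07 FPKM in flox/flox. Klf5 was the lowest member, at 0.840 FPKM in scKO on 20 counts and 0.829 FPKM in flox/flox on 21 counts.

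The order of levels depends on the length used. The FPKM of Klf15 implies a length of 6571 bases, 2.35 times the merged exons of the gene in GENCODE M21, while that of Klf9 implies 3263 bases, 0.678 times its merged exons. The implied length also exceeded the merged exons for Klf4 (1.45 times) and Klf3 (1.29 times), among others. For such genes it is not the length of a GENCODE M21 transcript. Recomputed with merged exon lengths, the level of Klf15 was 16.1 FPKM in scKO and 11.3 FPKM in flox/flox. It then stood above Klf4 in scKO (9.36) and below it in flox/flox (12.8). On that scale Klf9 remained first, at 37.8 in scKO and 36.9 in flox/flox, and Klf2 followed. The ratio between libraries does not depend on this length, since each gene had the same implied length in both.

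**Figure D1:**
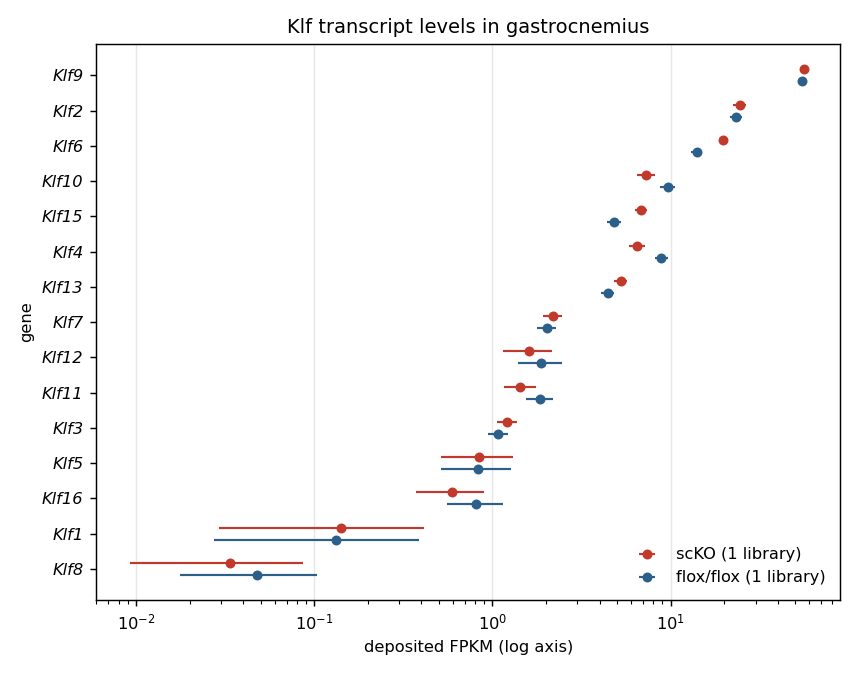
Deposited FPKM (log axis) of 15 Klf genes in the scKO library (red, upper point) and the flox/flox library (blue, lower point), with 95% counting intervals as bars. Klf9 is highest at 55.8 in scKO and 54.5 in flox/flox, and the points of Klf6 and Klf15 lie further right in scKO while those of Klf10 and Klf4 lie further left. Klf14 and Klf17 are not drawn because at least 1 library lists them at 0.

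All 10 members passed the minimum of 20 summed counts. None was at least 2-fold apart between the libraries. Of the 12662 tested genes, 1.49% were higher in scKO by 2-fold or more with a counting interval wholly above 0, and 1.91% were lower by that much with an interval wholly below 0. A smaller difference, with a counting interval wholly above 0, was seen for 3 members, Klf6, Klf13 and Klf15, against 12.8% of all tested genes. An interval wholly below 0 was seen for 2 members, Klf4 and Klf10, against 12.3% of all tested genes. The other 5 intervals included 0. Because intervals narrow as counts rise, the members are better set against genes of like count: 9 of the 10 had summed counts between 400 and 6000, and of the 5347 genes in that range 17.2% had intervals above 0 and 14.3% below. The median log2 ratio of the 10 members was 0.05, with a range of −0.50 to 0.47, and that of all tested genes was 0.002. In the range of 400 to 6000 counts the log2 ratios had an SD of 0.31 over genes and quartiles of −0.10 and 0.13.

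**Figure D2:**
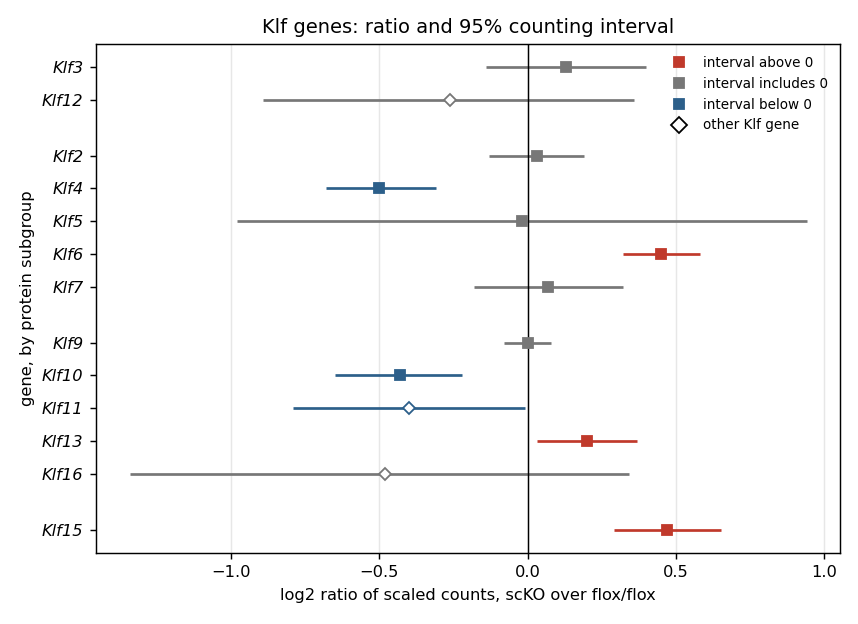
Log2 ratio of scaled counts, scKO over flox/flox, of the 13 Klf genes with at least 20 summed counts, grouped by protein subgroup, with 95% counting intervals as bars. Filled squares are the 10 members and open diamonds the other Klf genes. Klf6 (0.45), Klf13 (0.20) and Klf15 (0.47) lie to the right of 0, and Klf4 (−0.50), Klf10 (−0.43) and Klf11 (−0.40) to the left.

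**Figure D3:**
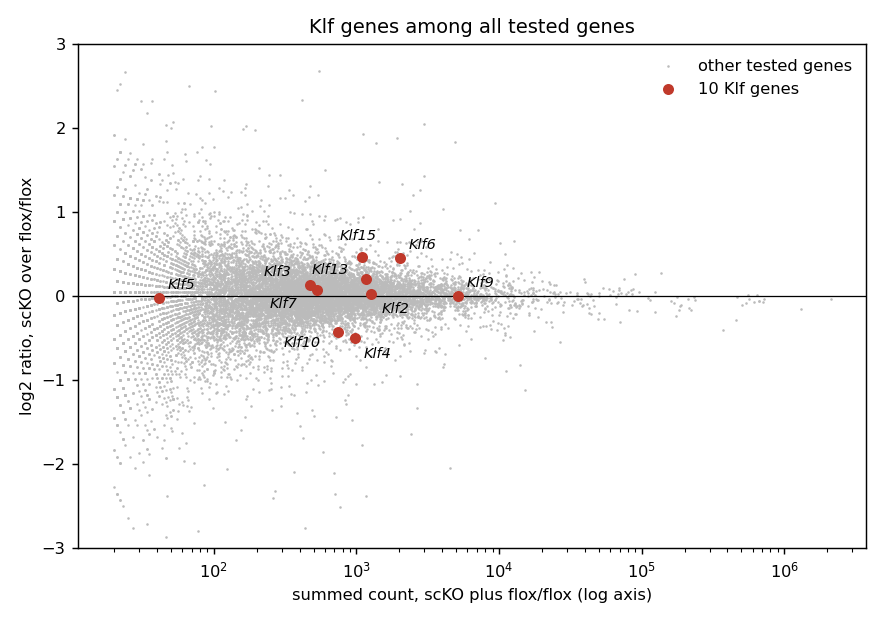
Log2 ratio of scKO over flox/flox against summed count (log axis) for all 12662 tested genes in grey and the 10 Klf members in red; 30 genes lie outside the drawn range of −3 to 3. Klf15, Klf6, Klf4 and Klf10 lie toward the edges of the cloud at their counts, and the other members lie inside it.

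Among the members mostly known as activators, the genes differed in direction. Klf6 had 1150 counts in scKO and 872 in flox/flox, which makes it 1.37-fold higher in scKO (log2 ratio 0.45, 0.32 to 0.58). Of the 5347 genes of like count, 2.75% had a log2 ratio at least as high, and 5.55% lay as far from 0 in either direction. Its closest relative Klf7, known from developing neurons, had 266 counts in scKO and 262 in flox/flox (0.07, −0.18 to 0.32). Klf5, a regulator in smooth muscle and gut epithelium, had too few counts to show a difference of this size (−0.02, −0.98 to 0.94).

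Klf4 was lower in scKO, with 395 counts against 577 in flox/flox, or 1.41-fold (log2 ratio −0.50, −0.68 to −0.31). It is an early-response gene and a regulator of endothelium, macrophages and epithelium. A log2 ratio as low or lower was seen in 2.38% of the genes of like count, and 4.53% lay as far from 0 in either direction. Klf2, with which it shares many endothelial targets, had 624 counts in scKO and 634 in flox/flox (0.03, −0.13 to 0.19). The ratio of Klf4 to Klf2 counts, into which no scaling of the libraries enters, was 0.633 in scKO and 0.910 in flox/flox. The ratio of these ratios was 0.696, with an exact conditional interval of 0.585 to 0.827 that covers counting error only. It was 1 of 6 such pairs of Klf genes compared, chosen with the counts known.

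Among the members that recruit SIN3A, the most abundant did not differ beyond counting error. Klf9 had 2520 counts in scKO and 2618 in flox/flox, a scaled ratio of 0.997, with a log2 interval of −0.08 to 0.08. Its paralogue Klf13, known from lymphocytes and heart, had 610 counts in scKO and 549 in flox/flox (0.20, 0.03 to 0.37). A log2 ratio this high or higher was seen in 14.3% of the genes of like count, so the difference of Klf13 is common among them. Klf10, an early gene of TGF-β signalling also called TIEG1, had 308 counts in scKO and 431 in flox/flox (−0.43, −0.65 to −0.22). Of the genes of like count, 3.03% were as low or lower, and 6.10% lay as far from 0 in either direction.

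Klf3 was the member that recruits CtBP. It is known in mouse muscle cells to bind the promoter of Ckm, and it had 243 counts in scKO and 230 in flox/flox (0.13, −0.14 to 0.40).

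Klf15 had the highest ratio of the 10 members. It had 623 counts in scKO and 466 in flox/flox, 1.39-fold higher in scKO (log2 ratio 0.47, 0.29 to 0.65). Of the genes of like count, 2.47% were as high or higher, and 5.11% lay as far from 0 in either direction. Set against Klf9, which glucocorticoids also induce, the count of Klf15 was 0.247 of that of Klf9 in scKO and 0.178 in flox/flox, with a ratio of ratios of 1.39 (1.21 to 1.59). Set against Klf10, the count of Klf15 was 2.02 times as high in scKO and 1.08 times as high in flox/flox, with a ratio of ratios of 1.87 (1.54 to 2.27). The other pairs gave ratios of ratios of 1.93 (1.64 to 2.26) for Klf6 over Klf4, 1.3 (1.07 to 1.58) for Klf6 over Klf7 and 1.15 (1.01 to 1.31) for Klf13 over Klf9. All pairs were chosen with the counts known, so they restate the differences of the single genes and add no separate evidence.

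The other 7 Klf genes of the table had at most 134 counts in a library. Klf11, the paralogue of Klf10, had 98 counts in scKO and 134 in flox/flox (−0.40, −0.79 to −0.01); with scaling by total counts its interval was −0.75 to 0.02. Klf12 had 41 counts in scKO and 51 in flox/flox (−0.26, −0.89 to 0.36), and Klf16 had 22 in scKO and 32 in flox/flox (−0.48, −1.34 to 0.34). Klf1, the erythroid member, had 3 counts in each library, and Klf8 had 4 in scKO and 6 in flox/flox. Klf14 had 0 counts in scKO and 2 in flox/flox, and Klf17 had 0 in both, where 0 counts allow up to 0.217 CPM in scKO and 0.204 CPM in flox/flox.

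Promoters are shown for the genes with the largest differences, Klf15, Klf6 and Klf4, and for Klf2 beside Klf4, since Klf4 and Klf2 are linked to ERK5 and Sp1. The sequences are RefSeq promoters on GRCm38.p6, printed 5′ to 3′ along the gene. Klf15 is chr6:90462326-90462575 on the plus strand, Klf6 chr13:5861239-5861481 on the plus strand, Klf4 chr4:55532476-55532725 on the minus strand and Klf2 chr8:72318812-72319032 on the plus strand. Each ends before the transcript start of both RefSeq and GENCODE M21. Capitals mark, on either strand, the GC box GGGCGG that Sp and KLF proteins bind, the CACCC box CACCC, the E-box CACGTG that CLOCK and BMAL1 bind, and a MEF2 site.
Klf15: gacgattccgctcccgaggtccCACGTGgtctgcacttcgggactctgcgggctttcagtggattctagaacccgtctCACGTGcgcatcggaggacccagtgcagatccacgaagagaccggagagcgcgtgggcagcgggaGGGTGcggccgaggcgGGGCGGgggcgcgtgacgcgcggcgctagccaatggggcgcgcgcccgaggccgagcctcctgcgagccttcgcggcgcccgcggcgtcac
Klf6: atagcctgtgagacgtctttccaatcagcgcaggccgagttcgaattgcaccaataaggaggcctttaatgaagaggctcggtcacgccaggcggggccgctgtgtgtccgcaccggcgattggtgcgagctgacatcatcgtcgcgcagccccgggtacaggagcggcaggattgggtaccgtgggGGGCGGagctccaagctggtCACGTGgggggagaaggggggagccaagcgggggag
Klf4: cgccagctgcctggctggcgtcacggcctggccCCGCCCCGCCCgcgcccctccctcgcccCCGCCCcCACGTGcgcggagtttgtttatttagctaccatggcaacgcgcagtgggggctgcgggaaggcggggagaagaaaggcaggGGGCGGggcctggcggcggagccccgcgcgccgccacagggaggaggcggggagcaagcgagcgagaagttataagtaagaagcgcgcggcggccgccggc
Klf2: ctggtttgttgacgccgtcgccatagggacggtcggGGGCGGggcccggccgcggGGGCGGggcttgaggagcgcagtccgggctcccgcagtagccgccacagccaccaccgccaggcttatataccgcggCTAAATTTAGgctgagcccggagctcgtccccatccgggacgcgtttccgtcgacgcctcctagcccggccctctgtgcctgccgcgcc

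Of the 10 members, 8 had a RefSeq promoter. In the 250 bases before the RefSeq start, the E-box was matched in 3 of the 8, with 2 matches in Klf15, 1 in Klf6 and 1 in Klf4, while 6.02% of all 32851 promoters held one. Klf15 and Klf6 were higher and Klf4 lower in scKO, so the genes with a match did not share a direction. The GC box was matched in 7 of the 8 promoters, against 32.7% of all, and the CACCC box in 6 of the 8, against 52.0% of all. Klf3 held the most, with 6 GC boxes and 5 CACCC boxes, some of which overlap each other. Of the 250 bases only 117 in Klf3 and 0 in Klf7 also lie before the GENCODE M21 start. Part of the Klf3 matches and all Klf7 matches thus lie inside the GENCODE gene. All 8 promoters were GC-rich, at 59.2% or more. Among the 9837 promoters at least as GC-rich, 75.0% held a GC box, 65.2% a CACCC box and 9.33% an E-box. Klf2 held the only MEF2 site, which was matched in 2.92% of all promoters; in the full window it also held a CACCC box near the RefSeq start. The TATA box TATAAA and the SRF-binding CArG box were matched in none of the 8. These matches describe letters in the windows and not bound sites.

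**Figure D4:**
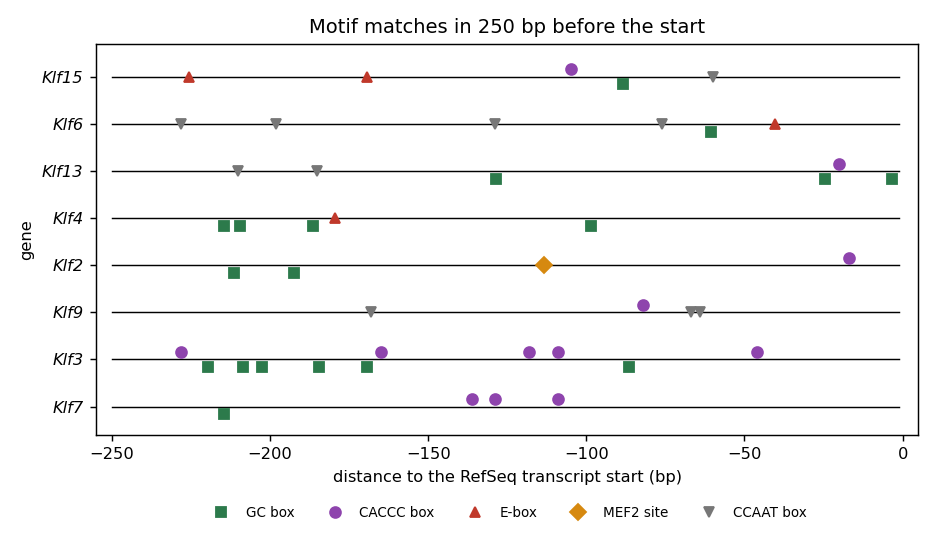
Motif matches on either strand in the 250 bp before the RefSeq transcript start of 8 Klf genes, by distance to the start. E-boxes (red triangles) lie in Klf15, Klf6 and Klf4, the MEF2 site (orange diamond) in Klf2, and Klf3 holds the most GC boxes (6, green squares) and CACCC boxes (5, purple circles); grey triangles are CCAAT boxes.

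Genes of the pathway from ERK5 to KLF2 and KLF4 differed in both directions. In mouse myoblasts ERK5, encoded by Mapk7, acts through Sp1 on Klf2 and Klf4, which in turn act on nephronectin (Npnt) to promote fusion. Mapk7 had 14 counts in scKO and 71 in flox/flox (log2 ratio −2.25, −3.23 to −1.45). Sp1 went the other way, with 293 counts in scKO and 31 in flox/flox (3.27, 2.76 to 3.88). Npnt was lower, with 104 counts in scKO and 167 in flox/flox (−0.63, −1.0 to −0.27), as was Klf4, while Klf2 did not differ beyond counting error. The kinase of ERK5, encoded by Map2k5, had 201 counts in scKO and 216 in flox/flox (−0.05, −0.34 to 0.23), and the nephronectin receptor subunit gene Itga8 had 44 in scKO and 36 in flox/flox (0.34, −0.33 to 1.02). The fusion protein genes Mymk and Mymx had at most 4 counts in a library. Of the 9 tested genes in this list of 11, 2 had intervals above 0 (Sp1 and Jam2) and 2 below, with a median of 0.04. Over all tested genes the shares were 12.8% above 0 and 12.3% below. The counts of Mapk7 are few and uncertain, since its exons overlap 89 bases of Mfap4 on the opposite strand. Sp1 also had few counts in flox/flox. The FPKM implies a length 3.19 times the merged exons for Mapk7, 1.46 times for Sp1 and 2.15 times for Cipc. This length does not enter the ratios.

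Genes of the metabolism linked to KLF15 were mostly slightly higher in scKO, as Klf15 was. Of the 15 genes in that list, 12 had intervals above 0 and 1 below, with a median log2 ratio of 0.19. With correction for GC content and length the interval of Fabp3, a fatty acid binding protein gene, included 0 (−0.02 to 0.10). Over all tested genes 12.8% had intervals above 0 and 12.3% below. Several of these genes are abundant, and of the 407 tested genes with more than 6000 summed counts 33.4% had intervals above 0 and 38.6% below. Most of the others had 400 to 6000 summed counts, a range where 17.2% of genes had intervals above 0 and 14.3% below. The branched-chain amino acid enzyme genes Bckdhb (0.49, 0.25 to 0.73), Bckdha (0.20, 0.10 to 0.30) and Bcat2 (0.19, 0.03 to 0.35) were higher. So were Bckdk, which encodes the kinase that inhibits their complex (0.26, 0.17 to 0.36), the proline oxidase gene Prodh (0.45, 0.13 to 0.78) and the alanine aminotransferase genes Gpt (0.42, 0.16 to 0.68) and Gpt2 (0.29, 0.23 to 0.35). Genes of glucose and fat uptake differed less, with the glucose transporter gene Slc2a4 at 0.09 (0.04 to 0.14) and the fatty acid transporter gene Cd36 at 0.10 (0.02 to 0.18). The carnitine carrier gene Slc25a20 was the one lower gene, at −0.17 (−0.30 to −0.04). The genes with intervals that include 0 were Acadm and Acsl1.

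Genes known to be induced by glucocorticoids, as Klf15 and Klf9 are, did not share a direction. Of 19 genes, 7 had intervals above 0 and 7 below, with a median of 0.05. Over all tested genes 12.8% lay above and 12.3% below, and over those with 400 to 6000 counts 17.2% above and 14.3% below. The receptor gene Nr3c1 had 1357 counts in scKO and 1361 in flox/flox (0.05, −0.06 to 0.16). Cebpd stood at 0.88 (0.68 to 1.09), the chaperone gene Fkbp5 at 0.86 (0.67 to 1.07), and Tsc22d3, which encodes GILZ, at 0.33 (0.25 to 0.40). The metallothionein gene Mt1 stood at 0.89 (0.62 to 1.17) and Mt2 at 0.72 (0.36 to 1.09). Pdk4, the gene of a kinase that turns off pyruvate dehydrogenase, was the lowest, at −0.90 (−0.95 to −0.84). Fbxo32 and Trim63, ubiquitin ligase genes that KLF15 is known to activate in rodent muscle, were lower, at −0.27 (−0.34 to −0.19) and −0.25 (−0.35 to −0.16), where Klf15 was higher.

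Klf4, Klf6 and Klf10 are known as early-response genes, of which Klf4 and Klf10 were lower and Klf6 higher. Of 15 immediate early genes, 7 had intervals below 0 and 2 above, with a median of −0.26. Among all tested genes 12.3% had intervals below 0 and 12.8% above, and among those with 400 to 6000 counts 14.3% below and 17.2% above. The lower genes include Atf3 at −0.78 (−1.12 to −0.45), Junb at −0.71 (−0.91 to −0.53) and Btg2 at −0.47 (−0.58 to −0.36), while Egr1 stood at 0.01 (−0.20 to 0.22). Ier3 (0.80, 0.36 to 1.25) and Zfp36 (0.34, 0.16 to 0.52) were the higher ones. In the list of TGF-β signalling, the input of Klf10, 2 of 14 genes had intervals above 0 and 4 below, with a median of −0.08. Skil, an early TGF-β target and feedback repressor, had 43 counts in scKO and 224 in flox/flox (−2.32, −2.84 to −1.85), and Tgif1 stood at −0.64 (−1.22 to −0.09). The signal transducers Smad2 (0.86, 0.48 to 1.26) and Smad3 (0.29, 0.17 to 0.41) were higher.

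**Figure D5:**
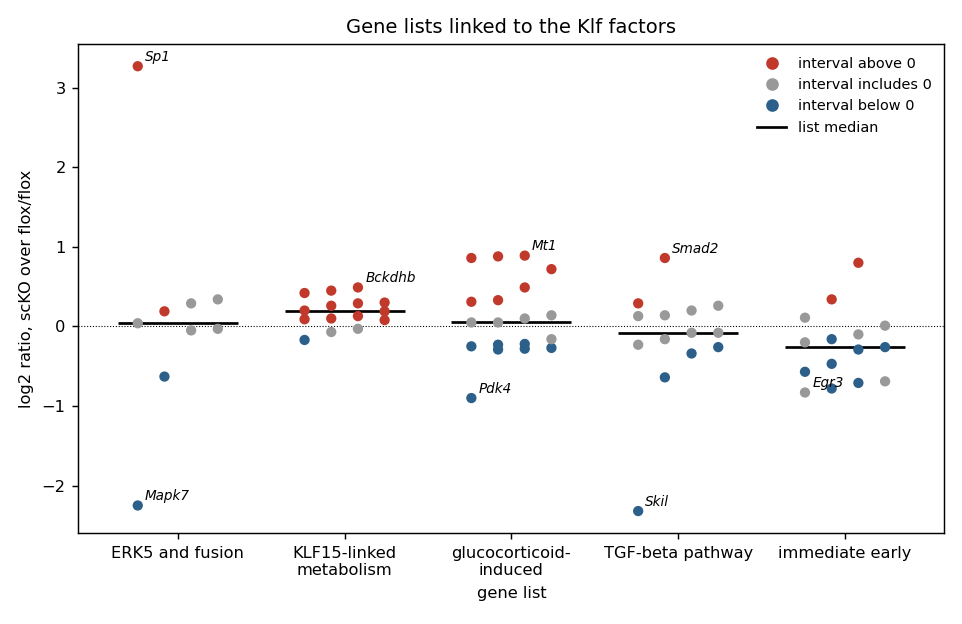
Log2 ratio, scKO over flox/flox, of each tested gene in 5 gene lists linked to the Klf factors; red points have counting intervals above 0, blue below, grey including 0, and black lines are list medians. Sp1 (3.27) and Mapk7 (−2.25) stand apart in the first list, Skil (−2.32) in the TGF-β list, and most points of the KLF15-linked list lie above 0, with a median of 0.19.

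Of 14 genes of KLF cofactors, 2 had intervals above 0 and 2 below, with a median of −0.01, which is near the background of 12.8% of all tested genes above 0 and 12.3% below. The CtBP gene Ctbp1, the partner of KLF3, stood at 0.18 (0.07 to 0.28) and Ctbp2 at −0.11 (−0.45 to 0.23). Sin3a stood at −0.24 (−0.47 to −0.01), an interval that reached 0.03 with scaling by total counts, and Sin3b at 0.05 (−0.20 to 0.29). Kat2b, an acetyltransferase gene, was higher at 0.15 (0.05 to 0.26), and Fhl3, which encodes a LIM domain partner of KLF3, was lower at −0.37 (−0.47 to −0.28).

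Several members are expressed in cells other than fibres, and in whole muscle fewer cells of a type and less RNA per cell cannot be told apart. For the counts of intervals below, the share over all tested genes was 12.8% above 0 and 12.3% below. In the range of 400 to 6000 summed counts it was 17.2% above and 14.3% below. Endothelial markers and targets of KLF2 and KLF4 summed to 369 CPM in scKO and 318 CPM in flox/flox, with 4 of 12 intervals above 0, none below and a median of 0.19; the interval of Cdh5 includes 0 with DESeq2 size factors, and with total counts 6 lay above 0. Macrophage markers summed to 79.5 CPM in scKO and 85.7 CPM in flox/flox, with 1 of 11 intervals above 0, 2 below and a median of −0.09. Smooth muscle and pericyte markers summed to 485 CPM in each library, with 1 of 8 above (3 with total counts), 2 below and a median of 0.11. These lists bear on Klf2 and Klf4, and their part in the ratios of these genes was not tested.

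Markers of fibro-adipogenic progenitors, from which muscle fibroblasts and fat cells arise, summed to 504 CPM in scKO and 618 CPM in flox/flox, with 6 of 9 intervals below 0, none above and a median of −0.25. They were lower together with Klf4 and Klf10, and their part in those ratios was not tested. The share over all tested genes was 12.3% below 0 and 12.8% above, and in the range of 400 to 6000 counts 14.3% below and 17.2% above. Adipocyte markers summed to 232 CPM in scKO and 200 CPM in flox/flox, with 1 of 7 above (Fabp4), none below and a median of 0.13. Most of that sum was Fabp4 itself, at 179 CPM in scKO and 152 CPM in flox/flox. Satellite cell markers summed to 112 CPM in scKO and 110 CPM in flox/flox, with 1 of 7 below (Pax7), none above and a median of 0.00. Most of that sum was Itga7, at 64.0 CPM in scKO and 63.9 CPM in flox/flox, so it says little of the scarcer markers. Pax7 had 2.78 CPM in scKO and 4.75 CPM in flox/flox (−0.76, −1.38 to −0.19). Fibre markers summed to 137394 CPM in scKO and 146705 CPM in flox/flox, with 2 of 9 above, 6 below and a median of −0.05. All 9 are abundant, and 33.4% of the genes with more than 6000 summed counts had intervals above 0 and 38.6% below. With scaling by total counts 4 fibre markers had intervals above 0 and 4 below: Myh2 and Mb were then above, and the interval of Ryr1 included 0, as it also did with correction for GC content and length. None of the markers in these lists was at 0 in either library.

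The members are single genes with little sequence shared with others, which bears on how their reads were assigned. In the GENCODE M21 transcripts, 6 of the 10 members (Klf2, Klf6, Klf7, Klf9, Klf10 and Klf15) held no stretch of 50 bases found in any other gene. In the other 4 at most 0.350% of such stretches were shared, in Klf3. Overlap with genes on the opposite strand was larger for Klf7, where 3196 of 8131 exon bases overlap the long noncoding RNA gene Gm26649, which had 0 counts in both libraries. Klf3 overlaps Gm20033 by 404 of its 11243 exon bases, and Gm20033 had 5 counts in scKO and 1 in flox/flox. Gm27252 overlaps the span of Klf13 on the opposite strand but shares no exon base with it. It had 32 counts in scKO and 15 in flox/flox (1.12, 0.22 to 2.14). Whether the counting used strand is not given in the sources used here. Klf6 (ENSMUSG00000000078) lies on chromosome 13 at 5861482 to 5870394, Klf15 (ENSMUSG00000030087) on chromosome 6 at 90462576 to 90475238, and Klf4 (ENSMUSG00000003032) on chromosome 4 at 55527143 to 55532466 in GRCm38. Klf10 (ENSMUSG00000037465) lies on chromosome 15 at 38291463 to 38300706. No exon of these 4 genes overlaps an exon of another gene.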

How the data were processed

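Total RNA of gastrocnemius was checked on a Bioanalyzer and sequenced on an Illumina system after VAHTS library preparation, per the labels' protocols. The deposited table holds whole-number counts per Ensembl gene, and the deposited FPKM values are 1 column per library, per the file headers. The submitters' processing notes name CASAVA, HISAT2 2.0.4, StringTie 1.3.0 and GRCm38, with no role or order; the annotation release, the counting options and the strand setting are not given in the sources used here. A reference table named 34267 of the 34745 identifiers.

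Counts were scaled by TMM (edgeR 4.0.16, R 4.3.3). The log2 ratio used a prior count of 0.5, and its exact conditional binomial (Clopper-Pearson) 95% interval reflects counting error alone, without PCR duplication or variation among mice. Intervals of levels are exact Poisson intervals. A gene was tested from a summed count of 20. No p-value was computed, since 1 library per group gives no spread between animals. Limits for 0 counts use 3 counts. Summed CPM of lists use TMM-scaled library totals, and the limits use the raw totals. The procedure was tested on simulated counts drawn with counting error only, which cannot show how it fares with variation among mice or PCR duplication. Alternatives were total counts, DESeq2 1.42.0 size factors, scaling without mitochondrial genes, other count minimums (none, 100), a prior count of 5, FPKM ratios with a pseudocount of 0.1, and lowess correction for GC content and length (statsmodels 0.14.6). After seeing the data, merged exon lengths and the count of members on each side of 0 were added. Promoters are those of RefSeq on GRCm38.p6; exons and transcripts are those of GENCODE M21 on GRCm38. Python 3.11.15 was used.

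The members and the 14 gene lists were chosen with earlier results of these data known. Named genes were all Klf genes, Cipc, Sp1, genes that overlap a member, and from each list up to 4 genes with the largest ratios; further list genes named were chosen after their values were seen. The value of 1 list gene is not reported here.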

Additional observations from a re-analysis of the deposited data

How the results depend on the processing

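The log2 ratios of Klf4 (−0.50 to −0.45), Klf10 (−0.44 to −0.39), Klf6 (0.44 to 0.49), Klf15 (0.46 to 0.51) and Klf13 (0.19 to 0.24) kept their direction over all 8 alternatives, and their intervals their side of 0 over the 7 that give intervals. Some of this was fixed in advance. The count minimums cannot change the ratio or interval of a gene that stays tested, and the prior count does not enter the intervals. Only the other scalings and the correction for GC content and length could move an interval. Klf5 and Klf9, whose intervals include 0, took a positive sign with total counts (0.019 and 0.034) and as FPKM ratios (0.017 and 0.034); both use the library totals in place of TMM, which moved the median of all genes by 0.038. Klf5 had too few counts for the minimum of 100. Among the genes of the lists the sign near 0 turned with total counts and as FPKM ratios for Acadm (0.013 and 0.013), Emcn (0.027 and 0.025), Jam3 (0.0048 and 0.0047), Mb (0.034 and 0.034), Myh2 (0.017 and 0.017) and Sdc4 (0.028 and 0.027), and with DESeq2 size factors for Egr1 (−0.000075) and Itga7 (−0.0073). The median of the cofactor list was 0.03 with total counts and that of the macrophage markers 0.05 with a minimum of 100 counts, both of the other sign. The number of genes at least 2-fold higher with an interval above 0 was 58 with a minimum of 100 counts, and of those at least 2-fold lower with an interval below 0 it was 68 with that minimum and 369 with none; fewer or more genes of low count are then tested. Of 1186 values of 150 genes (Cipc and the tested list genes other than Klf genes), 14 changed sign, among them Myh2, whose interval turned from below to above 0 with total counts, and beside these 5 lost and 10 gained an interval on 1 side of 0. Per kilobase of merged exons, 14 of 20 member levels left their counting interval. No paired analysis was possible because each group holds 1 library. No library could be left out. Intervals cover counting error only.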
